A study of Mus musculus with 37 samples.

Results

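The genes described here are the nuclear genes of oxidative phosphorylation, taken as every mouse symbol that starts with Ndufa, Ndufb, Ndufc, Ndufs, Ndufv, Sdha, Sdhb, Sdhc, Sdhd, Uqcr, Cox4, Cox5, Cox6, Cox7 or Atp5, without Cox6a2 and Cox8b. The rule found 93 of the 27998 genes counted. By symbol, 38 belonged to complex I, 4 to complex II, 8 to complex III, 14 to complex IV and 17 to ATP synthase, and 12 were assembly factors. They were followed in mouse embryonic fibroblasts (MEFs) of the ICR strain, infected with retroviral vectors carrying a pool of 48 factors and profiled as single cells by Drop-seq 7 days later. Every library came from the same pool and from biological replicate 1, and no uninfected MEFs were analysed here, so the groups compared are cells of the same libraries in which a factor's transcript was counted at least 1 time and cells in which it was not.

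Oxidative phosphorylation makes most of the ATP of a resting cell. Complexes I and II take electrons from NADH and succinate, complex III passes them to cytochrome c, complex IV hands them to oxygen, and ATP synthase uses the proton gradient that complexes I, III and IV build. Complexes I, III, IV and ATP synthase join nuclear subunits, made in the cytosol and imported, to core subunits encoded by mitochondrial DNA, while complex II is wholly nuclear. Skeletal muscle and heart are rich in mitochondria and replace some complex IV subunits by muscle isoforms, among them Cox6a2 for Cox6a1 and Cox8b for Cox8a. Myod1 is the helix-loop-helix factor that turns fibroblasts into skeletal muscle cells, Mef2c a MADS-box factor that works with it, Myocd a coactivator of smooth and cardiac muscle genes, Gata4 and Gata6 zinc finger factors of heart and endoderm, and Foxn4 a forkhead factor.

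Promoter sequences are shown for 4 members on which the results below turn: the 2 complex III genes and the ATP synthase gene with the smallest adjusted p with Myod1, and Cox6a1, 1 of the 2 complex IV genes that fell in muscle-rich cells. Each is the 250 bases before the RefSeq start in GRCm38.p6, written 5′ to 3′ on the gene's own strand, which is the minus strand in all 4, with letters in capitals where 1 of 6 motifs was found on either strand. They are Uqcrfs1 (chr13:30545317-30545566), Uqcrh (chr4:116075071-116075320), Atp5g3 (chr2:73911327-73911576) and Cox6a1 (chr5:115348959-115349208).
Uqcrfs1: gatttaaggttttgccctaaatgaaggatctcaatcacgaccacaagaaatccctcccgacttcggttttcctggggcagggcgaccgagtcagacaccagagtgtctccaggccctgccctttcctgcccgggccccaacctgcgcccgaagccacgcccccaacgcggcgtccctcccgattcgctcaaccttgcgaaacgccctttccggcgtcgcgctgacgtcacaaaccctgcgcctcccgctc
Uqcrh: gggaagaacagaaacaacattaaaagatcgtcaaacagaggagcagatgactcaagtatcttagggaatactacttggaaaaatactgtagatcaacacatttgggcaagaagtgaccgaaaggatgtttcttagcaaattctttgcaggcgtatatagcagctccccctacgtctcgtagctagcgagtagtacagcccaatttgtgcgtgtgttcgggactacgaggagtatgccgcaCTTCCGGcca
Atp5g3: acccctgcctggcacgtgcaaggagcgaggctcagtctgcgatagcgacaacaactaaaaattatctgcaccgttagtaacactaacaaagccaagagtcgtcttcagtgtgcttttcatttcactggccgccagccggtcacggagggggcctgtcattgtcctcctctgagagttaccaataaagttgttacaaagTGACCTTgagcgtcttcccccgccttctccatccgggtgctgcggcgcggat
Cox6a1: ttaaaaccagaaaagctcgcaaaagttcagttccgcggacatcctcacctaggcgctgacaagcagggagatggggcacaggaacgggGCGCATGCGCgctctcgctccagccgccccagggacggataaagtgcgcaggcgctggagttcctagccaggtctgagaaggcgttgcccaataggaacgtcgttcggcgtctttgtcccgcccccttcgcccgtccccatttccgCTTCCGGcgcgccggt
The capitals in Uqcrh are an ETS motif (CCGGAAG, here on the opposite strand), those in Atp5g3 an estrogen-related receptor (ERR) motif (AAGGTCA, opposite strand), and those in Cox6a1 a pair of overlapping NRF1 motifs (CATGCGC, 1 on each strand) followed by an ETS motif. The Uqcrfs1 window held none of the 6.

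RefSeq gave a window of 300 bases, 250 before the start and 50 after it, for 76 of the 93 members and for 27025 genes in all. The NRF1 letters were in 15 of 76 members (19.7%) beside 4.41% of all genes, and the ETS letters in 20 of 76 members (26.3%) beside 9.93%. NRF1 and the ETS factor GABP are known regulators of respiratory genes. The ERR letters were in 8 of 76 members (10.5%) beside 5.38%, and the YY1 letters (AAGATGG) in 11 of 76 members (14.5%) beside 7.28%. The E-box CAGCTG, a form that Myod1 binds, was in 5 of 76 members (6.58%) beside 18.3%, namely Atp5b, Ndufa8, Ndufb10, Ndufs5 and Ndufv2. The GATA letters AGATAAG were in 0 of 76 beside 3.50%. Among the 27 matched members that were called higher with Myod1, 29.6% held the ETS letters and 18.5% the NRF1 letters, and among the other 49 the shares were 24.5% and 20.4%. These are matches of letters, given as a description without a test.

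The 36 libraries used held 8565 cells and 119803382 deduplicated transcript counts, 637680 to 7921171 per library, with a median of 8553 counts and 3568 genes per cell. Of the 37 libraries deposited, technical replicates 4 and 6 shared 59 cell barcodes where the next pair shared 4, and they were treated as 1. The libraries fell into 26 in which Rps27a, a ribosomal protein gene with copies in the genome, stood at 2.96 to 15.6 CPM (counts scaled to the total of the cells summed, so that libraries of different depth compare) and 10 in which it stood at 728 to 1302. Members took 2.36% of all counts. Only Atp5g1, a gene for subunit c of ATP synthase, and Cox7c, a complex IV subunit with near-identical copies, differed at least 4-fold between these classes with no overlap; the ratios of the other 91 ran from 0.681 to 1.45. Every comparison below was made within a library, so it did not cross the classes. Of the members, 28 overlapped an exon of another counted gene and 14 had a near-identical copy elsewhere, and their counts are uncertain to that extent.

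Each cell with a factor was matched to a cell of the same library without it and with the nearest total count. Myod1 was counted in 352 cells (4.11%), Mef2c in 2231 (26.0%), Myocd in 262 (3.06%), Gata4 in 213 (2.49%), Gata6 in 2002 (23.4%) and Foxn4 in 453 (5.29%). Matching gave 350 pairs over 34 libraries for Myod1, with median totals of 13246 and 13212 counts, and 204 to 2231 pairs over 29 to 36 libraries for the other 5. Counts were summed over the cells of each side per library, and libraries, which are technical replicates, were the replicates of the test. A count cannot tell the delivered factor from the cell's own gene or from RNA released by other cells, and carriers whose factor was not counted stayed among the cells without it. Control cells are partly shared between factors, so the comparisons are set side by side without a measure of overlap.

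Cells with Myod1 held more transcripts of nuclear oxidative phosphorylation genes than their matches. Of 92 members tested, 34 were higher and 0 lower by edgeR's quasi-likelihood test at a Benjamini-Hochberg adjusted p under 0.05, while 9.13% of the 13811 genes tested were called higher and 5.22% lower. The median log2 fold change of the members was 0.19 beside -0.0055 over all genes tested, and 81 of the 92 lay above 0. Summed over the members, the level in cells with Myod1 had a lowest, median and highest library value of 19779.9, 27610.5 and 35594 CPM, beside 16633, 23383 and 32065 in their matches. The ranges overlapped widely, but within a library the cells with Myod1 were higher in 27 of 34, by a median of 0.23 on the log2 scale. The changes were small, and the highest fold among the members called was 1.47, that of Uqcrfs1. By the prefixes of the library names, which form 3 series, 5 of 88 members were called higher in the 15 libraries named PZ47 and PZ48, 1 of 91 in the 15 named JD and 0 of 88 in the 6 named PZ58, beside 4.36%, 5.33% and 1.87% of all genes. So within a series the share of members called was near that of all genes or below it, with medians of 0.22, 0.18 and 0.24 on the log2 scale. The libraries with low Rps27a alone gave 24 of 91 members, beside 7.41% of all genes, and a median of 0.20. Those with high Rps27a gave 0 of 91, beside 2.86%, and a median of 0.18.

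The rise spanned all 5 complexes. It took in 6 of 8 members of complex III (median log2 fold change 0.30), 11 of 17 of ATP synthase (0.26), 6 of 13 tested of complex IV (0.25), 2 of 4 of complex II (0.24) and 9 of 38 of complex I (0.16). Of the 12 assembly factors, which build the complexes without staying in them, 0 passed the test and the median was 0.051. Their median library levels over all cells, 18.2 (Ndufaf5) to 79.1 CPM (Sdhaf4), were under those of most subunits. A change of the same size was therefore harder to call for them. No difference between these groups was tested.

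Complex III held the 2 members with the smallest adjusted p. Uqcrfs1 (chr13:30540308-30545362, minus strand, GRCm38) encodes the Rieske iron-sulfur protein, which takes the electron from ubiquinol. Its lowest, median and highest library values were 121, 269 and 483 CPM in cells with Myod1 and 0, 181 and 304 in their matches. It was 1.47-fold higher with Myod1, a log2 fold change of 0.56 ± 0.0962 (adjusted p = 1.38e-05) by edgeR's quasi-likelihood test, and higher in 32 of 34 libraries, although the 2 ranges overlapped. Uqcrh (chr4:116066965-116075071, minus strand), the hinge protein that sits at cytochrome c1, stood at 265, 463 and 678 CPM with Myod1 and 121, 320.5 and 535 without. Its log2 fold change was 0.46 ± 0.0819 (adjusted p = 2.48e-05) by the same edgeR test, with the same direction in 30 of 34 libraries. The core protein Uqcrc2 (0.34 ± 0.100, ± SE; it overlaps Pdzd9) and the small subunits Uqcrb (0.32 ± 0.0851), Uqcr10 (0.28 ± 0.0681) and Uqcr11 (0.26 ± 0.0824) also rose. Uqcrq, the small subunit with the most counts in the complex, had a log2 fold change of 0.0093 ± 0.0728 and did not pass. Uqcr11 has a near-identical copy, and Uqcrb overlaps Gm10767.

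In complex IV, Cox5a (chr9:57521274-57532426, plus strand), a subunit that joins the catalytic core early in assembly, had lowest, median and highest values of 399, 925 and 1357 CPM with Myod1 and 297, 684 and 1112 in the matches. The ranges overlapped, and 28 of 34 libraries had the higher value with Myod1; the log2 fold change was 0.39 ± 0.0747 (adjusted p = 9.54e-05) by edgeR's quasi-likelihood test. It overlaps Gm26631 on the other strand, so some of its counts may belong there. Its partner Cox5b (0.38 ± 0.0864), Cox7b (0.31 ± 0.0758), Cox6b1, which faces cytochrome c (0.27 ± 0.0800), Cox7a2 (0.25 ± 0.0768) and Cox7c (0.28 ± 0.0952) rose too. Not every complex IV member did: Cox4i1, the common form of subunit 4 and the member of the complex with the most counts, gave 0.12 ± 0.0681 and did not pass (it overlaps Emc8). Cox6a1 (chr5:115345642-115348981, minus strand), the form of subunit 6a found outside muscle, stood at 255, 733 and 1498 CPM with Myod1 and 324, 739 and 1199 without, a log2 fold change of -0.0062 ± 0.0719, and was higher in 14 of 34 libraries. Cox6b2, the testis form of subunit 6b, gave -0.32 ± 0.167, and Cox7a2l, which links complexes III and IV, -0.077 ± 0.0949; neither passed. The muscle form Cox7a1 was counted 38 and 22 times with and without Myod1, and Cox4i2, the form of lung and of low oxygen, 7 and 15 times, too few to give either a direction.

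The 11 members of ATP synthase that rose belong to its head, its stalks and its membrane part. Atp5g3 (chr2:73908447-73911326, minus strand), 1 of 3 genes for the ring's subunit c, had values of 295, 488 and 1008 CPM with Myod1 and 249.8, 389.5 and 558 without, overlapping between the groups. Its log2 fold change was 0.35 ± 0.0718 (adjusted p = 0.0003) by edgeR's quasi-likelihood test, with a higher value in 27 of 34 libraries. The other 2 genes of subunit c did not pass, at 0.055 ± 0.176 for Atp5g1 and -0.57 ± 0.396 for Atp5g2. The catalytic subunits alpha, Atp5a1 (0.26 ± 0.0829), and beta, Atp5b (0.24 ± 0.0689), the central stalk's gamma, Atp5c1 (0.28 ± 0.0701), and delta, Atp5d (0.21 ± 0.0731), and the side stalk's Atp5f1 (0.29 ± 0.0716), Atp5h (0.25 ± 0.0728), Atp5j (0.28 ± 0.0653) and Atp5o (0.26 ± 0.0680) all rose. So did the small membrane subunits Atp5k (0.29 ± 0.0815) and Atp5mpl (0.36 ± 0.0793). Of these 11, only Atp5g3 and Atp5mpl have neither a near-identical copy nor an overlapping gene: Atp5b, Atp5c1, Atp5h and Atp5k have copies, and Atp5a1, Atp5d, Atp5f1, Atp5j and Atp5o overlap a gene on the other strand.

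Of the 38 members placed in complex I, Ndufa4 (chr6:11900292-11907497, minus strand) had the smallest adjusted p; its symbol dates from its first assignment, and its protein is now known as a subunit associated with complex IV. Its values were 517, 756 and 1454 CPM with Myod1 and 239, 622 and 1095 without, again overlapping, and its log2 fold change was 0.33 ± 0.0702 (adjusted p = 0.000462) by edgeR's quasi-likelihood test, higher in 26 of 34 libraries. The 8 others that rose were the core subunits Ndufs1 (0.35 ± 0.0969) and Ndufs3 (0.34 ± 0.103) and the accessory subunits Ndufs4 (0.32 ± 0.0830), Ndufa6 (0.31 ± 0.0803), Ndufa10 (0.29 ± 0.0761), Ndufb8 (0.26 ± 0.0718), Ndufb9 (0.34 ± 0.0771) and Ndufb10 (0.24 ± 0.0841). Of these, Ndufs1, Ndufs3 and Ndufb8 overlap another counted gene, and Ndufs3 also has a copy. Ndufa4l2, a relative of Ndufa4 known for its induction in low oxygen, was counted 45 and 60 times and did not pass (-0.30 ± 0.623; it overlaps Shmt2). In complex II, the flavoprotein Sdha (0.29 ± 0.0956) and the membrane anchor Sdhd (0.35 ± 0.0945) rose, while the iron-sulfur subunit Sdhb gave 0.11 ± 0.0776 and did not pass. Sdhaf4, the assembly factor with the most counts, gave 0.045 ± 0.101.

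**Figure D1:**
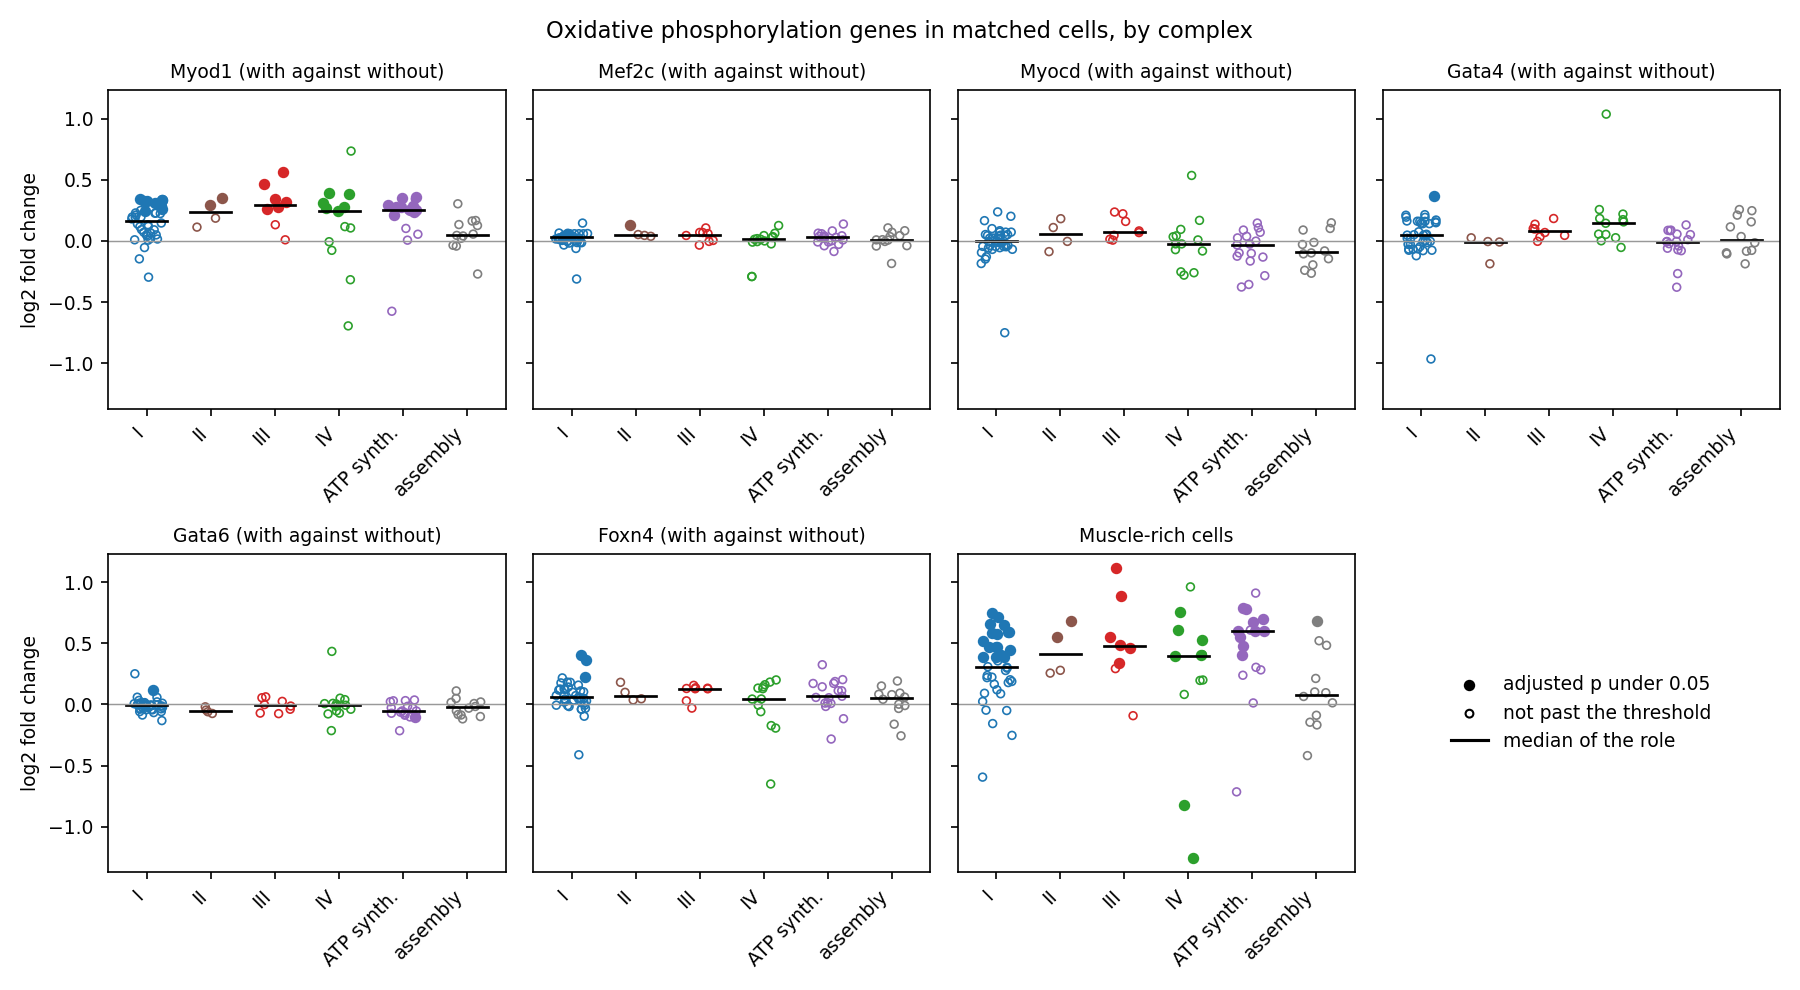
Log2 fold change of each member (y axis) by complex or role (x axis) in cells with each of the 6 factors against matched cells without it, and in muscle-rich cells against matched cells; filled points had an adjusted p under 0.05, open points did not, and the line is the median of each role. Filled points are many for Myod1 (34) and muscle-rich cells (43) and at most 3 in each of the other panels.

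With the other 5 factors, 0 to 3 members were called. For Mef2c, 1 of 93 was higher and 0 lower, where 4.25% of all genes tested were called higher and 2.12% lower; the members' median log2 fold change was 0.029 beside 0.009 over all genes tested, and 68 of 93 lay above 0. Here the matched cells still differed in mean total count, 21159 with Mef2c and 18141 without, although their medians were alike. With pairs held within 10% of each other's total counts the members' median was 0.002, and 48 of 92 lay above 0. The 1 called was Sdha (chr13:74322254-74350280), at 82.2, 128 and 199.7 CPM with Mef2c and 81.6, 118 and 158 without, a log2 fold change of 0.13 ± 0.0347 (adjusted p = 0.0101) by edgeR's quasi-likelihood test and higher in 28 of 36 libraries. It was not called with the closer pairs, nor without the deepest 5% of cells. With 2231 pairs the standard errors were small (Cox5a 0.044 ± 0.0294, Cox6a1 -0.0053 ± 0.0245, Ndufa4 0.059 ± 0.0274, Cox4i1 0.014 ± 0.0213). For Myocd, 0 of 92 were called in either direction, where 2.99% of all genes were higher and 1.79% lower; 8 had an unadjusted p under 0.05, where 14.9% of all genes had one, DESeq2 called 1, and the median was -0.005 beside -0.0018 over all genes tested. Here Cox5a gave 0.17 ± 0.0863, Cox6a1 0.034 ± 0.0733 and Ndufa4 0.10 ± 0.0822.

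Ndufa6 (chr15:82350140-82354322), an accessory subunit of complex I, was the 1 member of 91 called higher with Gata4, where 2.21% of all genes were higher and 0.732% lower. It stood at 156, 307 and 541 CPM with Gata4 and 99.7, 248 and 368 without, a log2 fold change of 0.37 ± 0.0941 (adjusted p = 0.0178) by edgeR's quasi-likelihood test, higher in 22 of 29 libraries. With Gata6, Ndufa6 was also the 1 member of 93 called higher, at 156, 281 and 377 CPM beside 147, 258 and 324, a log2 fold change of 0.12 ± 0.0347 (adjusted p = 0.0271) by the same edgeR test, higher in 28 of 36 libraries. Gata6 was counted in 46.6% of the matched cells with Gata4 and 24.0% of their matches. The 2 calls of Ndufa6 therefore share cells and are not independent. The background for Gata6 was 4.1% higher and 2.37% lower. Atp5e (chr2:174461072-174464105), the epsilon subunit of ATP synthase, was the 1 called lower with Gata6, at 203, 346 and 557 CPM beside 237, 367 and 559, -0.11 ± 0.0338 (adjusted p = 0.0474) by edgeR, and higher in only 8 of 36 libraries. With pairs held within 10% of total counts, and without the deepest 5% of cells, 0 members were called higher with Gata6, and with RLE scaling 0 were called lower. The medians of the members were 0.047 beside 0.019 over all genes tested for Gata4 and -0.015 beside 0.0065 over all genes tested for Gata6. The mean total counts of the Gata6 cells and their matches were 20157 and 18223, and with pairs within 10% the Gata6 median was -0.055 beside -0.005 over all genes, with 16 of 93 members above 0 in place of 31. The Gata4 call of Ndufa6 was lost without the deepest 5% of cells.

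Foxn4 had 3 of 92 members higher (3.26%) and 0 lower, where 3.85% of all genes were higher and 3.13% lower. So the share of members called higher was no more than that of all genes. The 3 belong to complex I, which holds 38 of the 92 tested. Myod1 was counted in 13.1% of the matched cells with Foxn4 and 4.87% of their matches. Ndufv3 (chr17:31520115-31531331), an accessory subunit of the NADH-binding arm with near-identical copies, stood at 145, 276 and 580.3 CPM with Foxn4 and 110.0, 208 and 324 without, a log2 fold change of 0.41 ± 0.0684 (adjusted p = 3.62e-05) by edgeR's quasi-likelihood test, higher in 29 of 35 libraries. Ndufa11 (chr17:56717767-56722141), a membrane arm subunit that overlaps Vmac, gave 0.36 ± 0.0784 (adjusted p = 0.00134) and was higher in 28 of 35 libraries. Ndufb10 (chr17:24722060-24724478), also of the membrane arm, gave 0.22 ± 0.0648 (adjusted p = 0.0251) by edgeR and was higher in 30 of 35 libraries. For none of the 3 were the groups apart: Ndufa11 ran from 173 to 891 CPM with Foxn4 and from 157 to 471 without. Below the single genes, the members' summed level was higher with Foxn4 in 29 of 35 libraries, with a median log2 ratio of 0.14, a median log2 fold change of 0.069 beside 0.0051 over all genes tested and 19 members at an unadjusted p under 0.05, where 18.4% of all genes had one. DESeq2 called 17 members higher with Foxn4, and edgeR with another scaling (RLE) 7, in place of 3; each of these called 4.53% of all genes higher.

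**Figure D2:**
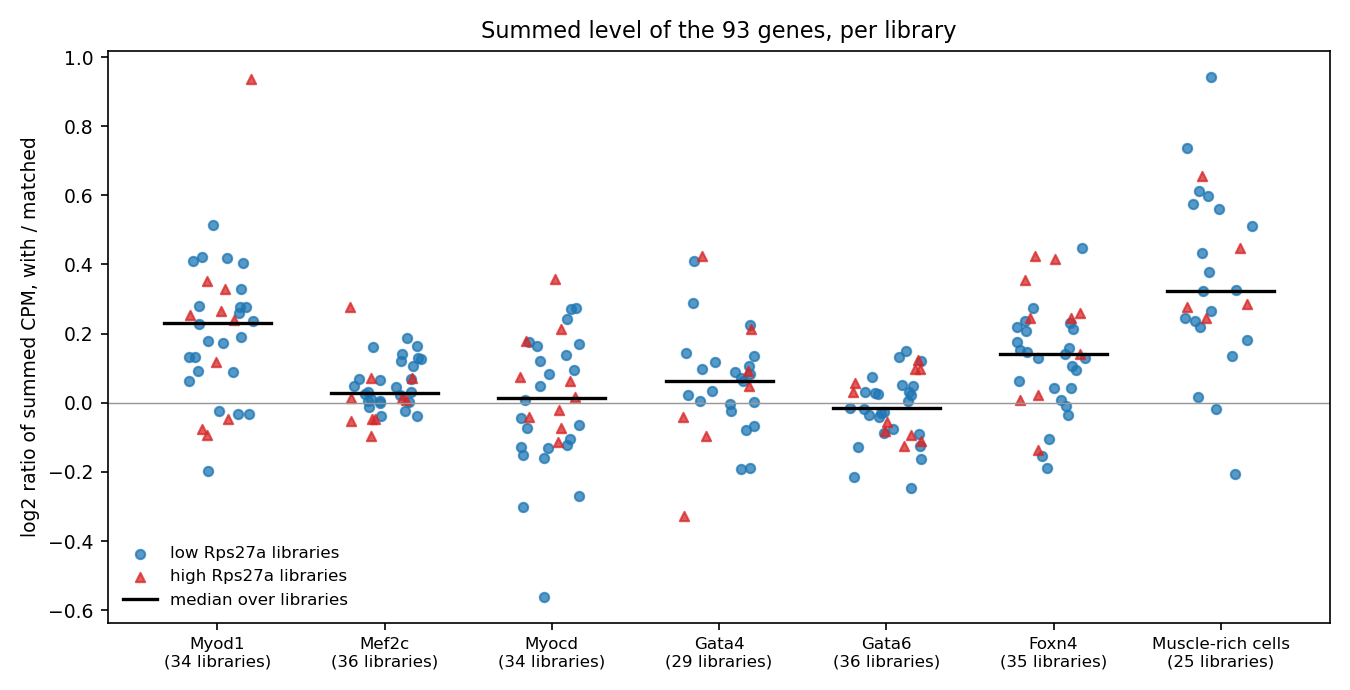
Log2 ratio of the members' summed CPM in cells with a factor (or muscle-rich cells) to that in matched cells of the same library (y axis), 1 point per library; circles are libraries with low Rps27a, triangles those with high Rps27a, and the line is the median. Points lie above 0 in 27 of 34 libraries for Myod1, 29 of 35 for Foxn4 and 23 of 25 for muscle-rich cells, beside 17 of 36 for Gata6.

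Muscle genes moved with the Myod1 result. All 20 skeletal muscle markers were higher with Myod1, with summed lowest, median and highest library values of 729, 14519 and 42015 CPM beside 46.3, 256 and 2227, and 8 of 11 cardiomyocyte markers tested were higher. Of 12 fibroblast markers 7 were lower, and the 12 summed to 3258, 9002 and 19048 CPM with Myod1 and 7537, 12053 and 17179 without; 0 of the S phase and 0 of the G2 and M phase markers were called. Cells with counts of at least 10 of the 20 skeletal muscle markers, called muscle-rich here, made up 112 of the 350 matched cells with Myod1 (32.0%) and 4 of their 350 matches. Mef2c was counted in 56.3% of the cells with Myod1 and 29.7% of their matches, and Foxn4 in 16.9% and 5.71%. For the other factors the muscle-rich shares with and without were 7.08% and 0.314% (Mef2c), 5.77% and 3.08% (Myocd), 4.90% and 1.47% (Gata4), 2.95% and 2.05% (Gata6) and 4.42% and 2.43% (Foxn4).

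Leaving out muscle-rich cells cut the pairs from 350 to 234 and the share of all genes called higher with Myod1 from 9.13% to 1.66%. Over the remaining 234 pairs in 32 libraries 1 of 91 members was higher, Uqcrh, at 0.38 ± 0.0922 (adjusted p = 0.0126) by edgeR's quasi-likelihood test, with 11 at an unadjusted p under 0.05 and 1.66% of all genes called higher. The members' median log2 fold change was 0.065 beside 0.0057 over all genes tested. Without these cells Uqcrfs1 gave 0.17 ± 0.101, Cox5a 0.095 ± 0.0822, Atp5g3 0.077 ± 0.0887 and Ndufa4 0.19 ± 0.0800, and none of the 4 passed. The 157 pairs in which Myod1 was counted at least 2 times gave 29 of 91 members higher, beside 8.72% of all genes, and a median of 0.25. Of their cells with Myod1, 47.8% were muscle-rich. Those cells were also deeper, with a median of 16062 counts where all matched cells with Myod1 had 13246. The part of muscle-rich cells in the Myod1 calls was not tested. Leaving out every cell with 3 or more muscle markers left 81 pairs and 0 of 88 members called (2 unadjusted), and leaving out cells with any of the other 5 factors left 55 pairs and 0 of 88 (0 unadjusted). In these 2 settings only 0.346% and 0.305% of all genes were called higher, so few calls could be made, and the members had medians of 0.037 and 0.058.

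Myod1 and Mef2c were then set against each other. Among cells with Mef2c, 194 pairs with and without Myod1 gave 36 of 91 members higher and 0 lower, with a median log2 fold change of 0.28 beside -0.016 over all genes tested and 9.11% of all genes called higher and 6.48% lower; 54.1% of the cells with Myod1 and 2.58% of their matches were muscle-rich. Between cells with Myod1 and no Mef2c and cells with Mef2c and no Myod1, 136 pairs gave 0 of 89 members in either direction by edgeR's quasi-likelihood test, 4 at an unadjusted p under 0.05 (beside 6.33% of all genes) and a median of 0.095 beside 0.00044 over all genes tested, where 0.496% of all genes were called higher and 0.0697% lower. There the muscle-rich shares were 2.94% and 3.68%. Against cells with Gata6, 214 pairs gave 26 of 91 members higher with Myod1 and 0 lower, a median of 0.24 beside -0.010 over all genes tested, and 6.07% of all genes higher and 3.15% lower, with muscle-rich shares of 33.2% and 0%. Against Myocd, Gata4 and Foxn4, where total counts were less well matched (medians 12877 and 17444, 12928 and 16391, 12319.5 and 13801), 10 of 91, 3 of 90 and 4 of 91 members were higher with Myod1, beside 5.4%, 4.89% and 6.15% of all genes, and 1, 0 and 1 were lower, beside 4.51%, 4.53% and 4.46%.

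Muscle-rich cells themselves, 177 of the 8565, were compared with cells of the same library that had at most 5 of the 20 markers, matched on total count (159 pairs, 25 libraries, medians 11186 and 11148 counts). The limit of 10 markers was set after the numbers per cell had been seen; 8 markers were counted in 26 cells, 9 in 23, 10 in 13 and 11 in 9. The markers chose these cells and no member did. Of 91 members tested 41 were higher and 2 lower, where 12.7% of the 12036 genes tested were called higher and 12.7% lower, and the median log2 fold change was 0.39 beside -0.066 over all genes tested. The summed level of the members had a lowest, median and highest value of 20661, 29463 and 46163 CPM, beside 15700.0, 24012 and 26886 in the matches, and was higher in 23 of 25 libraries. Beside this, all 12 fibroblast markers were lower, with summed values of 1128 to 9682 CPM against 7424 to 17106, and 9 of 10 cardiomyocyte markers tested were higher. The skeletal muscle markers summed to 11354 to 72284 CPM, which the rule required to be high, and the median of the summed G2 and M phase markers was 195 CPM beside 608, with 0 of 12 called. The part of these shifts in the result was not tested.

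The members that rose came from every complex: 6 of 8 in complex III, 10 of 17 in ATP synthase, 17 of 38 in complex I, 2 of 4 in complex II and 5 of 12 tested in complex IV, with 1 of 12 assembly factors, Ndufaf1 of complex I (0.68 ± 0.259, adjusted p = 0.0445 by edgeR's quasi-likelihood test). Uqcrfs1, the Rieske protein gene shown above, again led, at 266, 370.1 and 653 CPM in muscle-rich cells and 70.0, 189 and 269 in their matches. It was higher in 25 of 25 libraries, 2.16-fold on average (log2 fold change 1.11 ± 0.136, adjusted p = 3.32e-09 by edgeR), and the 2 ranges overlapped only between 266 and 269 CPM. ATP synthase as a whole summed to 6569.7, 8908 and 13006 CPM beside 4939, 6288 and 7113, higher in 24 of 25 libraries. Its catalytic subunit Atp5b stood at 707, 1574 and 2307 CPM beside 645, 999 and 1651, 0.68 ± 0.110 (adjusted p = 2.64e-06) by edgeR, with the same direction in 25 of 25 libraries. Cox5a stood at 453, 1023 and 2373 CPM beside 294, 688 and 1125, 0.76 ± 0.133 (adjusted p = 1.03e-05) by edgeR, and was higher in 22 of 25 libraries.

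Among the rest, the core proteins Uqcrc2 (0.88 ± 0.152) and Uqcrc1 (0.49 ± 0.121) and the hinge protein Uqcrh (0.55 ± 0.124) rose in complex III. In complex I the core subunits Ndufs1 (0.71 ± 0.176), Ndufs3 (0.59 ± 0.183), Ndufs7 (0.65 ± 0.137), Ndufv1 (0.59 ± 0.163) and Ndufv2 (0.47 ± 0.141) rose, as did Ndufa4 (0.52 ± 0.128). The core subunits named here carry or bind the electron path from NADH to ubiquinone. In ATP synthase Atp5g3 (0.79 ± 0.133), Atp5k (0.78 ± 0.134), Atp5mpl (0.70 ± 0.128) and Atp5a1 (0.60 ± 0.123) rose, and in complex II Sdhd (0.68 ± 0.140) and Sdha (0.55 ± 0.149). Members that did not pass included Cox4i1 (0.20 ± 0.113), Uqcrq (-0.092 ± 0.115), Sdhb (0.28 ± 0.126) and Sdhaf4 (-0.15 ± 0.193), the members with the most counts in their groups.

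**Figure D3:**
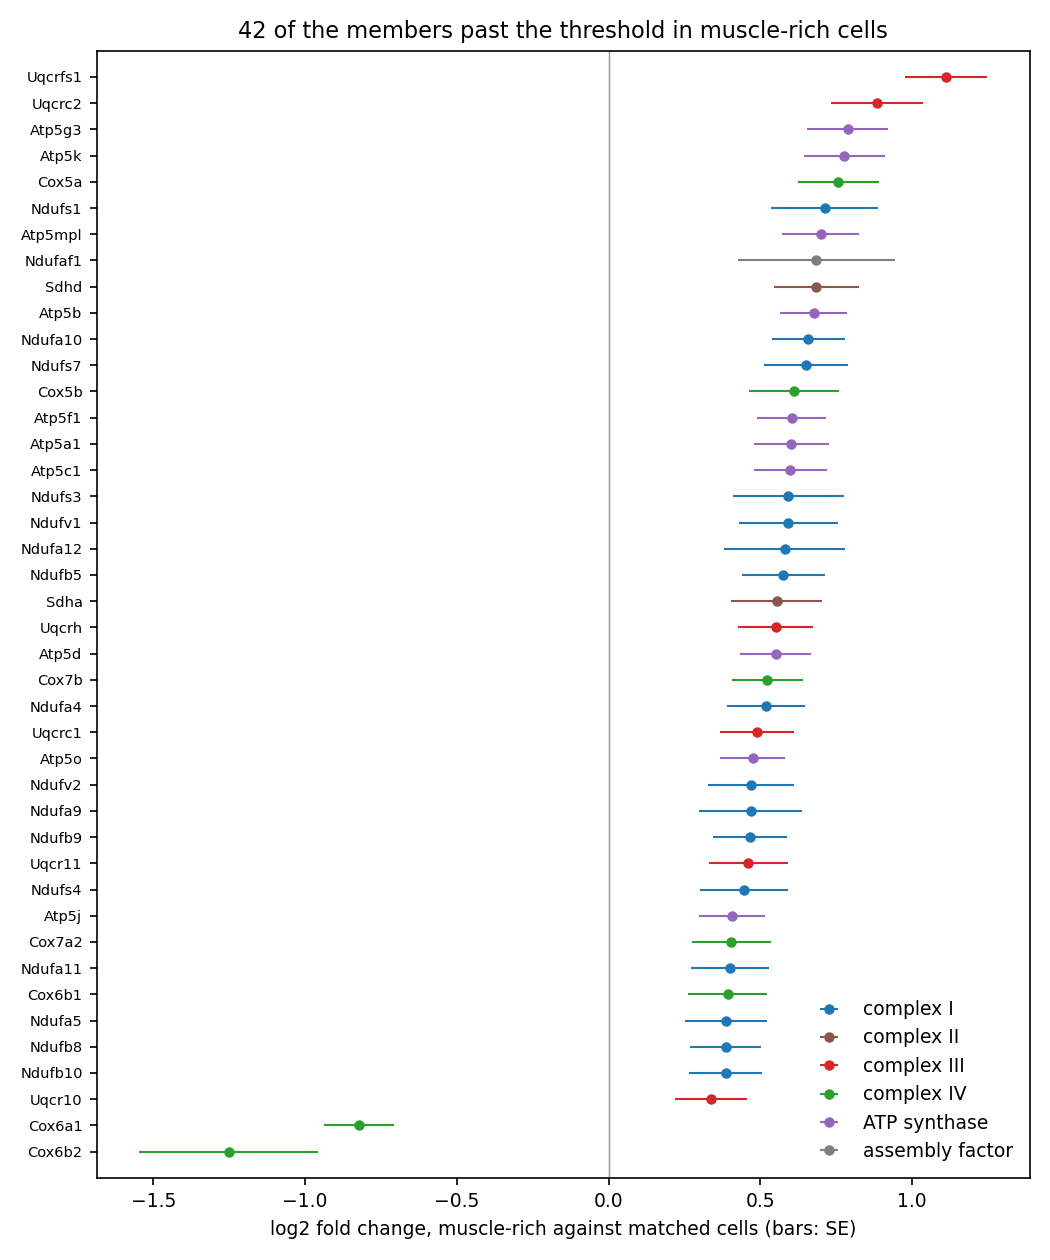
Log2 fold change (x axis, ± SE) in muscle-rich cells against matched cells for 42 of the 43 members with an adjusted p under 0.05, coloured by complex. All lie above 0 except Cox6a1 and Cox6b2.

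Complex IV did not move as 1 block in muscle-rich cells. Cox5a, Cox5b (0.61 ± 0.148), Cox7b (0.52 ± 0.116), Cox7a2 (0.40 ± 0.129) and Cox6b1 (0.39 ± 0.130) rose, while Cox6a1 and Cox6b2 fell. Cox6a1 stood at 79.9, 406 and 854 CPM in muscle-rich cells and 293, 696 and 996 in the matches, a log2 fold change of -0.82 ± 0.115 (adjusted p = 1.04e-07) by edgeR's quasi-likelihood test, and was higher in only 1 of 25 libraries. Cox6b2 (chr7:4751792-4753094, minus strand) stood at 0, 20.8 and 97.6 CPM beside 14.0, 54.2 and 281, -1.25 ± 0.293 (adjusted p = 0.000781) by edgeR, and was higher in 6 of 25 libraries. For both genes the ranges overlapped. Cox6a2 and Cox8b lie outside the rule. Cox6a2, the muscle form of subunit 6a, was counted 561 times in muscle-rich cells and 12 in the matches (235 and 5.81 CPM on average), 5.19 ± 0.298 (adjusted p = 1.17e-20) by edgeR and higher in 24 of 25 libraries. Cox8b, the muscle form of subunit 8, was counted 287 and 2 times and was higher in 23 of 25 libraries (adjusted p = 1.1e-19 by edgeR, with too few counts in the matches to give a fold). The counts of its common form Cox8a were 1256 and 1368, with a log2 fold change of -0.091 ± 0.126 that did not pass. For subunit 6a the common form was lower and the muscle form higher, and for subunit 8 the muscle form was higher and no fall in the common form was called.

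Other isoform pairs were less clear. The muscle form Cox7a1 had 24 and 13 counts (0.96 ± 0.618, not past the threshold), its partner Cox7a2 rose, and Cox7a2l gave 0.20 ± 0.179. Ndufa4l2 gave -0.59 ± 0.853 and did not pass, and Cox4i2, with 2 and 9 counts, fell under the minimum for testing. In the Myod1 comparison Cox6a2 was counted 606 and 47 times (3.57 ± 0.340, adjusted p = 6.05e-12 by edgeR's quasi-likelihood test) and Cox8b 327 and 13 (4.45 ± 0.381, adjusted p = 2.84e-13), while Cox6a1, at -0.0062 ± 0.0719, was not called. Without muscle-rich cells Cox6a1 gave 0.24 ± 0.0845 (adjusted p = 0.139) by edgeR, which did not pass either. With Mef2c, Cox8b (3.18 ± 0.272, adjusted p = 1.77e-12) and Cox6a2 (1.91 ± 0.240, adjusted p = 3.64e-08) were higher by edgeR, and with Gata4 Cox6a2 was (3.00 ± 0.521, adjusted p = 0.000442). Muscle-rich cells numbered 158 with Mef2c and 7 in the matches, and 10 with Gata4 and 3 in the matches. Myod1 was counted in 11.8% of the cells with Gata4 and 6.37% of their matches. The part of these cells in the 2 results was not tested.

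**Figure D4:**
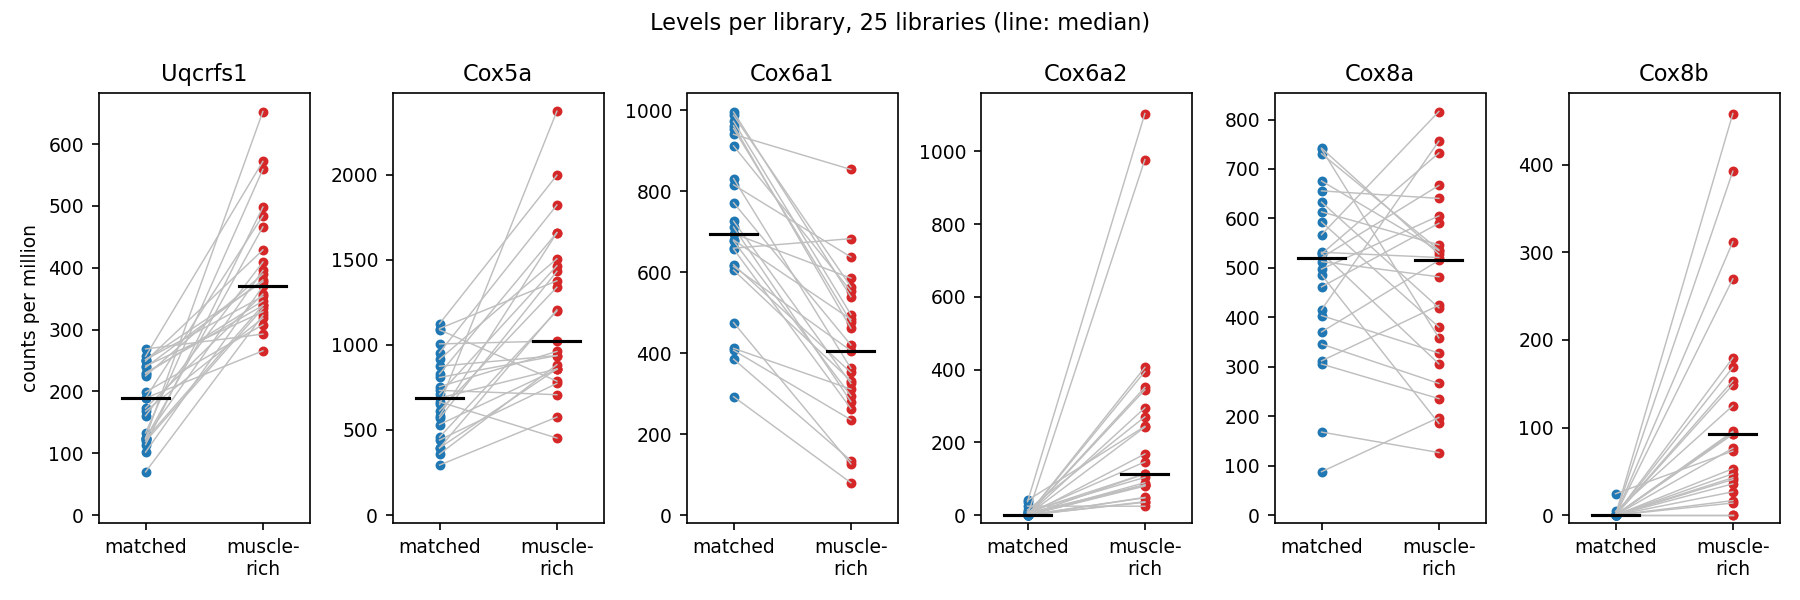
CPM (y axis) of Uqcrfs1, Cox5a, Cox6a1, Cox6a2, Cox8a and Cox8b in the matched cells (blue) and the muscle-rich cells (red) of 25 libraries; lines join the 2 values of a library and black bars are medians. Uqcrfs1 rises in all 25, Cox6a1 is higher in 1 of 25, and Cox6a2 and Cox8b are higher in 24 and 23 of 25, from matched values near 0.

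Those subunits encoded by mitochondrial DNA that could be tested, partners of the nuclear ones, were higher too with Myod1 and in muscle-rich cells. With Myod1, 7 of the 7 tested, of 13 in all, rose, with a median log2 fold change of 0.51, where 9.13% of all genes were called higher. The rest of the 13 were not tested, so the result does not cover them. Their summed level was 3590.3, 6675 and 14321 CPM with Myod1 and 1883, 4723 and 7506 without, higher in 32 of 34 libraries. Cytochrome b, mt-Cytb, gave 0.54 ± 0.0834 (adjusted p = 1.9e-06) by edgeR's quasi-likelihood test, and the complex I subunits mt-Nd4 and mt-Nd2 gave 0.51 ± 0.0819 and 0.52 ± 0.0841. In muscle-rich cells the 7 tested rose by a median of 0.94, from 2619, 4688 and 8842 to 5409.5, 8975 and 17051 CPM (lowest, median, highest), in 25 of 25 libraries. There 12.7% of all genes were called higher. With Mef2c 3 of 11 tested were higher (mt-Nd5 0.13 ± 0.0388, mt-Cytb 0.11 ± 0.0346, mt-Nd2 0.10 ± 0.0327), with Myocd, Gata4 and Foxn4 0 of 7, and with Gata6 0 of 10 were higher and mt-Co1 was lower (-0.13 ± 0.0393). Of all genes tested, 4.25% were called higher with Mef2c, 2.99% with Myocd, 2.21% with Gata4 and 3.85% with Foxn4. For Gata6 the shares were 4.1% higher and 2.37% lower.

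Genes that feed the chain moved in part, where 9.13% of all genes were called higher with Myod1 and 5.22% lower. With Myod1, 6 of 13 citric acid cycle genes rose, and 3 of 10 genes around pyruvate dehydrogenase, led by its beta subunit Pdhb (0.60 ± 0.100, adjusted p = 7.53e-06 by edgeR's quasi-likelihood test). Of 13 fatty acid oxidation genes, 2 rose, including the long-chain dehydrogenase Acadl (0.62 ± 0.100, adjusted p = 4.1e-06 by edgeR), and the thiolase Acaa2 fell (-0.40 ± 0.137, adjusted p = 0.0366). In glycolysis 3 of 17 rose, all muscle forms (Pgam2 4.52 ± 0.277, Pfkm 0.87 ± 0.180 and Eno3), and 3 fell. Myoglobin Mb (6.43 ± 0.237) and the creatine kinases Ckm (3.95 ± 0.464) and Ckb (1.19 ± 0.161) rose among 4 of 11 energy transfer genes. Of the carriers and subunits outside the rule, 4 of 8 rose: Cox6a2, Cox8b, cytochrome c1 Cyc1 (0.34 ± 0.0913, adjusted p = 0.00695 by edgeR) and cytochrome c Cycs (0.63 ± 0.202, adjusted p = 0.0252).

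Among 11 regulators of mitochondrial biogenesis 2 rose with Myod1, the coactivators Ppargc1b (2.09 ± 0.358, adjusted p = 1.76e-05 by edgeR's quasi-likelihood test) and Ppargc1a (1.39 ± 0.430, adjusted p = 0.0217; 42 and 13 counts). The nuclear receptor Esrra (-0.23 ± 0.181) and the mitochondrial transcription factor Tfam (0.30 ± 0.148) did not pass. Of 13 genes of import and structure 0 rose and 2 fell, the chaperonin Hspd1 (-0.38 ± 0.0820, adjusted p = 0.000457 by edgeR) and the import motor's Hspa9 (-0.26 ± 0.0834, adjusted p = 0.0244). Hspa9 was also lower with Mef2c (-0.13 ± 0.0290), Myocd (-0.45 ± 0.0750), Gata4 (-0.31 ± 0.0902), Gata6 (-0.13 ± 0.0371) and Foxn4 (-0.20 ± 0.0635), in comparisons that share control cells. Of 10 assembly genes of cytochrome c oxidase, 1 rose, Cox19 (0.44 ± 0.129). With 9.13% of all genes called higher with Myod1 and 5.22% lower, 1 or 2 calls in such a list do not mark a shift of the list.

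In muscle-rich cells the same lists gave 9 of 13 citric acid cycle genes higher, 5 of 10 around pyruvate dehydrogenase (Pdhb 1.12 ± 0.161, Dlat 0.70 ± 0.165, Pdha1 0.67 ± 0.149), 3 of 12 of fatty acid oxidation (Acadl 1.05 ± 0.150), and 7 of 17 higher with 2 lower in glycolysis. Of all genes tested there, 12.7% were called higher and 12.7% lower. Ppargc1b (2.44 ± 0.420) and Ppargc1a (1.71 ± 0.587) rose, and Cyc1 gave 0.78 ± 0.128 (adjusted p = 2.9e-06) by edgeR's quasi-likelihood test. Beside the few members called for the other factors, Acadl (0.14 ± 0.0402) and Ppargc1b (1.22 ± 0.247) were higher with Mef2c; Acadl (0.49 ± 0.104) and the isocitrate dehydrogenase subunit Idh3a (0.36 ± 0.112) with Myocd; and the carnitine transferase Cpt1a (0.49 ± 0.0983), Idh3a (0.33 ± 0.0903) and Ppargc1b (1.76 ± 0.380) with Foxn4. With Gata4 the copper chaperone Cox17 (0.43 ± 0.101) and the assembly factor Cox20 (0.40 ± 0.114) were higher, and with Gata6 lactate dehydrogenase Ldha (-0.20 ± 0.0357) and enolase Eno1 (-0.18 ± 0.0442) were lower. The genes named for these 5 factors were picked because they passed the threshold, so they do not mark a shift of a list. Of all genes, 4.25% (Mef2c), 2.99% (Myocd), 3.85% (Foxn4) and 2.21% (Gata4) were called higher, and 2.37% lower with Gata6.

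Other cell type markers moved with these factors as well. With Mef2c, 20 of 20 skeletal muscle, 8 of 10 macrophage and 5 of 7 glial markers were higher; with Myocd, 7 of 8 smooth muscle and 8 of 12 cardiomyocyte markers; with Gata4, 7 of 8 mesothelial and 8 of 20 skeletal muscle markers; with Gata6, 8 of 8 mesothelial and 7 of 12 cardiomyocyte markers. With Foxn4, only 2 of the 8 listed epithelial markers could be tested, and the 2 were higher. The list summed to 57.1 to 5544 CPM beside 0 to 1098. With Foxn4, 1 of 20 skeletal muscle markers was also higher. Of all genes tested, 2.21% (Gata4) to 4.25% (Mef2c) were called higher with these 5 factors. The part of the marker shifts in the results for the members was not tested. The wider class of cells with at least 3 skeletal muscle markers (2174 pairs) had 42 of 93 members higher and 0 lower with a median log2 fold change of 0.10 beside 0.016 over all genes tested and 10.9% of all genes higher and 7.22% lower, but its cells held more counts than their matches, with medians of 14664.5 and 10613, so depth and class cannot be told apart there.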

How the data were processed

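Transcripts were counted in single reprogrammed MEFs by Drop-seq. The deposited files hold whole-number counts per gene and cell, not normalized; per the submitters' processing notes the tools were bcl2fastq 2.17.1.14, STAR 2.5.3a, UMI-tools and featureCounts 1.5.3, on mm10. Which annotation was counted, with what strandedness, how reads with several positions were handled and how cells were filtered is not given in the sources used here.

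Symbols and positions came from GENCODE M21 (GRCm38), which named 27645 of 27998 Ensembl identifiers. Of 8730 barcodes, 165 that were shared between libraries or nearly identical to another of their library were removed. Library medians ran from 3563 to 15695 counts per cell. No doublet caller was run; a setting without the deepest 5% of cells stands in its place. Cells with a factor were paired 1 to 1 with cells of their library without it, in libraries with at least 3 such cells. The pairs of a library were those with the smallest summed difference in log total count, so a single pair can differ more. Counts were summed per side and library, genes with at least 20 counts over the sums were fitted with edgeR 4.0.16's quasi-likelihood test (limma 3.58.1, R 4.3.3; TMM scaling, library as block), and p-values were Benjamini-Hochberg adjusted over all genes tested. DESeq2 1.42.0, RLE scaling, no filter, no block and other choices of cells or libraries were alternatives. Standard errors (±) were worked back from the edgeR test, as the log2 fold change without its sign over the square root of its F statistic. For some genes they do not match the p-value. Without muscle-rich cells Cox7c gave 0.21 ± 0.126 with p = 0.286 by edgeR's quasi-likelihood test. The fit was tested on simulated data. Pairs come from 1 library by construction, and libraries are technical replicates of 1 biological replicate, so p-values measure technical spread only. Copies were sought with BLAST 2.17.0 (at least 95% identity over 100 of the last 400 bases); other steps used Python 3.11.15 and SciPy 1.17.1.

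The members and lists were chosen with earlier results of these data known. Named are, for each factor, the 5 higher and 5 lower members with the smallest adjusted p, the listed isoforms, the member of each complex with the most counts, up to 3 genes per pathway list, and members that differ 4-fold between the Rps27a classes; other members, and those named in muscle-rich cells, were chosen after their values were seen. The muscle-rich class, its removal and the comparisons of Myod1 with each other factor were added after the data had been seen. Values of a few genes are not reported here.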

Additional observations from a re-analysis of the deposited data

How the results depend on the processing

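For Myod1 the count of 34 members higher stayed within 24 to 40 under RLE scaling (37), DESeq2 (40), no filter on low counts (24), at least 2 counts of Myod1 (29), pairs within 10% of total counts (38), no deepest cells (28) and low Rps27a libraries alone (24). It was 0 without cells with at least 3 muscle markers, 1 without those with at least 10, 0 without cells with any other factor, 0 in high Rps27a libraries, and 1, 5 and 0 in the series JD, PZ47-PZ48 and PZ58. The last 4 rest on fewer libraries and kept medians of 0.18, 0.18, 0.22 and 0.24 on the log2 scale, in that order. Of all genes tested, 6.18% to 9.7% were called higher in the settings just given with 24 to 40 members. In the others the shares were 0.346%, 1.66%, 0.305%, 2.86%, 5.33%, 4.36% and 1.87%, in the order given. The cause of these shifts was not tested.

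Pairs share a library, and without the replicate block Myod1 gave 24 members higher (median 0.21), Myod1 within Mef2c 26 in place of 36, Foxn4 2 in place of 3, Mef2c, Myocd and Gata4 0, Gata6 0 higher and 0 lower, and cells with at least 3 muscle markers 11 in place of 42. The shares of all genes called higher were 9.8%, 10.1%, 4.56%, 3.9%, 3.82%, 3.3%, 2.98% and 8.67%, in that order. So for cells with at least 3 muscle markers, 11 of 93 was near the share of all genes. With the block, 42 of 93 had stood beside 10.9%. The comparison of muscle-rich cells was not run without it. It kept its 41 higher and 2 lower with pairs within 10% of total counts, which dropped no pair, and had 47 and 2 with RLE scaling.

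The few calls of the other factors varied with the setting, and so did the share of all genes called higher. It ran from 0.543% to 4.94% for Mef2c, 0.0881% to 3.82% for Myocd and 0.0257% to 3.3% for Gata4. For Gata6 it ran from 0.241% to 4.95% and for Foxn4 from 0.171% to 4.56%. Genes lower with Gata6 ran from 5 of 13295 to 488 of 16092. In settings with a low share hardly any gene was called, so 0 members there says little. Mef2c (1 higher) had 2 with RLE scaling and 3 with at least 2 counts, and 0 with closer pairs, without the deepest cells, in each of the 3 settings that leave out muscle-marked or other-factor cells, in both Rps27a classes and in all 3 series. Myocd (0 higher) had 1 with DESeq2. Gata4 (1 higher) had 2 with RLE scaling, DESeq2 or closer pairs, 1 other than Ndufa6 without the deepest cells, and 0 with at least 2 counts, without cells with 3 muscle markers or other factors, and in high Rps27a, JD and PZ58 libraries. Gata6 (1 higher) had 0 with no filter, closer pairs, no deepest cells, no cells with 3 muscle markers or other factors, in either Rps27a class and in each series. Gata6 (1 lower) had 2 with DESeq2, closer pairs or no muscle-rich cells, 3 without the deepest cells, and 0 with RLE scaling, no filter, at least 2 counts, no cells with 3 muscle markers or other factors, high Rps27a and each series. Foxn4 (3 higher) had 7 with RLE scaling, 17 with DESeq2, 5 without muscle-rich cells, 1 without cells with 3 muscle markers, 0 without other factors, 0 in high Rps27a libraries, and 0, 1 and 0 in the 3 series. Medians of the members ran from -0.034 to 0.048 for Mef2c, -0.11 to 0.099 for Gata4 and -0.059 to 0.0068 for Gata6. The members called and named by the rule (5 for Myod1, 1 each for Mef2c and Gata4, 2 for Gata6, 3 for Foxn4) kept their sign in every alternative that gave a value, but lost the threshold in 29 of 75 such values for Myod1, 11 of 15 for Mef2c, 8 of 15 for Gata4, 22 of 30 for Gata6 and 20 of 45 for Foxn4. Members that were not called could change sign, as Cox6a1 did without muscle-rich cells.

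The number of cells limits the rarer factors most. There were 204 pairs for Gata4 and 260 for Myocd beside 2231 for Mef2c, with standard errors several times those of Mef2c. Members with few counts (Cox4i2, Cox7a1, Ndufa4l2) stayed without a direction.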
